A study of Mus musculus with 6 samples.

Results

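The 45 genes described here are antiviral genes known to be induced by type I interferon. They were chosen by gene symbol from a table of 54532 mouse genes, in which each symbol was found. In both groups, CD8T cells from mouse spleen had been activated with anti-CD3/CD28 beads and then kept for 24 hr with macrophages that had received 10 ng/mL IFN-γ for 12 hr. The macrophages of the control group received no DB2313. Those of the DB2313 group received 14 nM of this compound, which inhibits the transcription factor Spi1 (also called PU.1). These are the conditions in the study's methods, whereas the labels call the cocultured cells DC, and the sources used here give neither the strain nor the age of the mice that provided the cells. Each group has 3 samples. Nothing states that they came from separate cultures, so the p-values measure only the spread between these samples, which may be technical. No CD8T cells kept alone, and no sample without IFN-γ, were analysed here.

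Type I interferons, such as IFN-β and the IFN-α family, bind the receptor formed by IFNAR1 and IFNAR2 on the cell surface. The receptor's kinases JAK1 and TYK2 then activate STAT2, which joins IRF9 in a complex that binds an element called the interferon-stimulated response element (ISRE) near the genes it switches on. The products detect viral RNA, block viral translation, degrade RNA or hold virus particles at membranes, and some of them, such as USP18, dampen the response again. Many of these genes also respond to IFN-γ. Both T cells and macrophages can respond to interferon.

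The libraries held between 16611975 and 18596217 counts on genes, and 14883 genes passed the filter on low counts. Values below are CPM, each gene's counts relative to the library total, scaled by the TMM method, a method that takes most genes to be unchanged. Differences are log2 fold changes of DB2313 over control, printed with ± their standard error (SE) and called where edgeR's quasi-likelihood test gave a p below 0.05 after Benjamini-Hochberg adjustment over all tested genes. The libraries are labelled as T cells but carried RNA of more than one cell type. All 20 markers of T cells were higher in the DB2313 group, by 0.32 to 0.74 with a median of 0.59, and together they took 0.371% to 0.376% of the counts in the control libraries and 0.596% to 0.601% in the DB2313 libraries. Of 20 macrophage markers, 18 were lower and 2 (Marco and Trem2) higher, with a median of -1.18, and their share went from between 1.36% and 1.4% to between 0.598% and 0.614%. Of 7 neutrophil markers, 6 were lower and 1 higher (0.152% to 0.153% of the counts, then 0.0581% to 0.0605%). Among 7 markers of conventional dendritic cells, 5 were lower and 1 (Flt3, at 0.36) higher (0.149% to 0.153%, then 0.143% to 0.148%). Most of these counts were of Ccr7 and Fscn1, which changed little, at -0.10 and -0.20. Clec9a and Cd209a, with few counts, were at -2.15 and -3.54, Zbtb46 was at -0.44 and Xcr1 was not called. None of the 5 B cell markers was lower and 3 were higher (0.00379% to 0.0043%, then 0.00579% to 0.00598%). Of 6 markers of plasmacytoid dendritic cells, Siglech had no count in any library, Klk1 had too few to be tested, and 3 of the other 4 were higher. No marker of T cells or macrophages was at 0. In such mixed samples, fewer cells of a type and less RNA per cell cannot be told apart.

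Most of the antiviral genes were higher in the DB2313 group, by small amounts, while 4 were clearly lower. All 45 genes passed the filter and were tested. Of these, 35 were higher, where 20.8% of all tested genes were, and 4 were lower, where 24.6% of all tested genes were. The lower genes were Ifitm1, Ifitm2, Ifitm3 and Mx1. The other 6 (Trim25, Eif2ak2, Ly6e, Parp14, Dtx3l and Slfn2) did not pass the threshold, with log2 fold changes between -0.03 and 0.08. In 36 genes the DB2313 libraries lay wholly above the controls (25.6% of all tested genes), in 4 they lay wholly below (27.5%), and in 5 the groups overlapped. The median log2 fold change of the 45 genes was 0.29, against 0.02 for all tested genes, whose lower and upper quartiles were -0.24 and 0.22. Their summed counts made up 1.02% ± 0.00302 of a control library and 1.26% ± 0.00751 of a DB2313 library (mean and SD of 3 libraries).

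These changes were modest in size. With an absolute log2 fold change above 1 as a second condition, 1 of the 45 genes was higher (Ifit3b), where 1.37% of all tested genes were, and 1 was lower (Ifitm1), where 5.3% were. The 35 higher genes had a median of 0.36, from 0.11 in Slfn5 to 1.04 in Ifit3b. The T cell markers, with a median of 0.59, rose by more than most of them. Of the 45 genes, 9 were above the median of the markers, 26 were below the lowest marker and 3 (Ifit1, Ifit3 and Ifit3b) were above the highest. The direction of most genes therefore depended on what the libraries were scaled to. Scaling to total counts or to the upper quartile gave 39 higher and 4 lower genes, and DESeq2 gave 34 and 4. When the libraries were instead scaled to the summed counts of the 20 T cell markers, 4 genes were higher (1.2% of all tested genes) and 32 were lower (77.3%), and the higher genes were Ifit1, Ifit3, Ifit3b and Rsad2. Higher genes thus made up 89.7% of the calls with TMM and 11.1% with the T cell markers. This scaling moved the median of all tested genes from 0.02 to -0.56 and that of the 45 genes from 0.29 to -0.29. The part of the markers' rise in the rise of the antiviral genes was not tested. For the counts by role below, the shares of all tested genes called higher and lower were 20.8% and 24.6% with TMM scaling. With scaling to the T cell markers they were 1.2% and 77.3%.

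**Figure D1:**
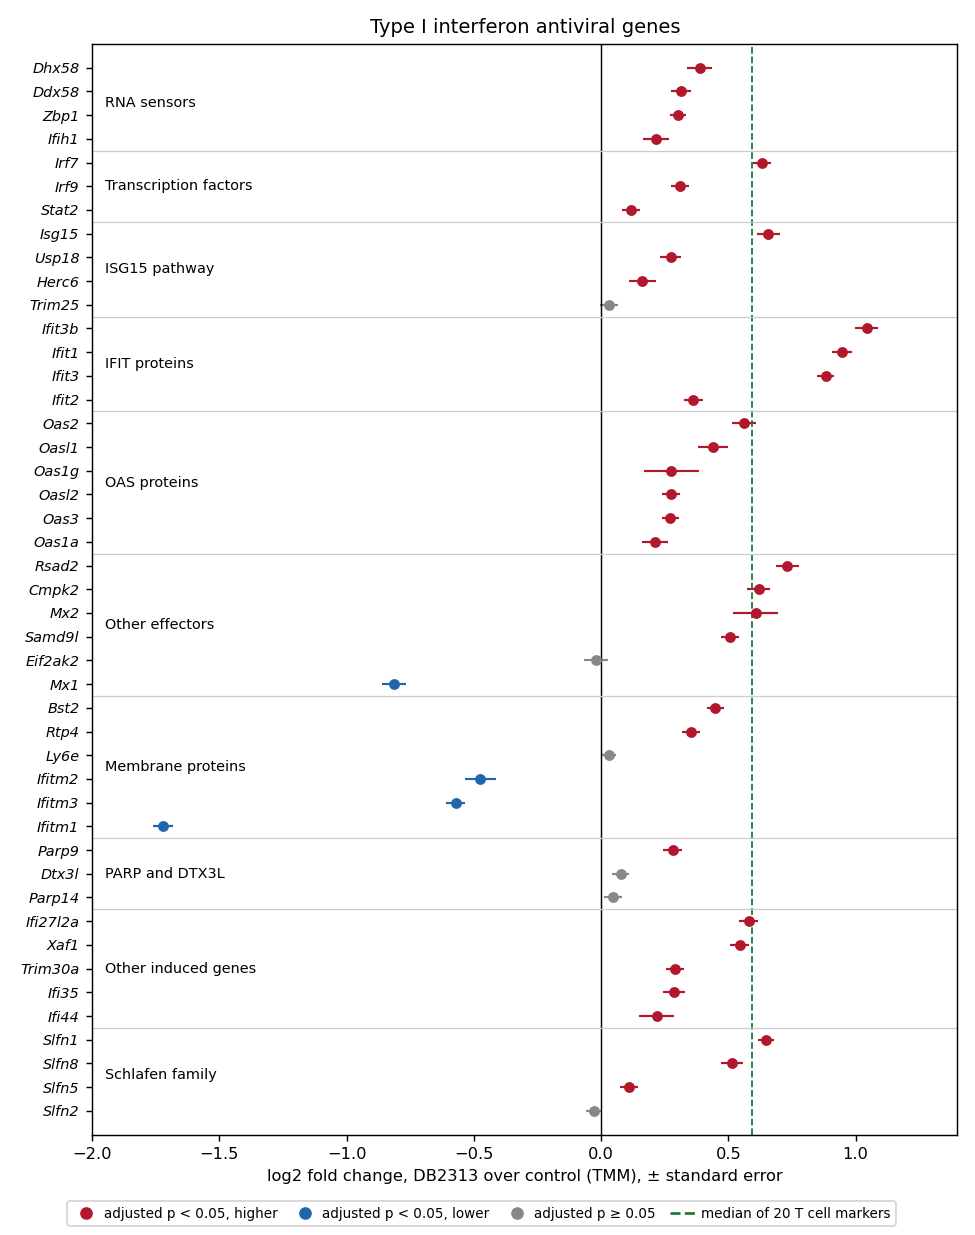
Log2 fold change of DB2313 over control (x axis, TMM scaling, ± standard error, 3 libraries per group) for each of the 45 genes (y axis), grouped by role and coloured by the call at an adjusted p of 0.05. Points to the right of 0 are higher with DB2313: 35 genes are called higher and 4 lower, and the dashed line marks the median of 0.59 of 20 T cell markers, relative to which 36 of the points lie lower; scaled to these markers, 4 genes are called higher and 32 lower.

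**Figure D2:**
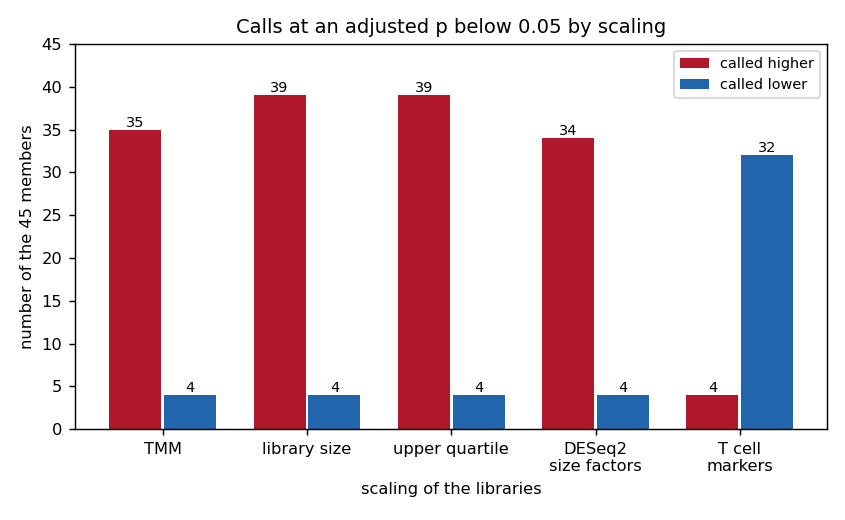
Number of the 45 genes (y axis) called higher or lower in the DB2313 group at an adjusted p of 0.05, by the scaling of the libraries (x axis). The first 4 scalings give 34 to 39 higher and 4 lower genes, while scaling to the T cell markers gives 4 higher and 32 lower.

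The promoters of these genes were read from a RefSeq table (GRCm38.p6), which gives 250 bases before and 50 after each listed start. It lists 32851 promoters, so some genes have more than 1 start. The promoters were read to see which genes carry the letters of an ISRE. With TMM scaling 35 of the 45 genes were called higher, although 32 were called lower with scaling to the T cell markers. Of the 45 genes, 34 are in the table, and Dhx58, Ifi27l2a, Ly6e, Mx1, Mx2, Oas2, Parp14, Parp9, Rtp4, Usp18 and Zbp1 are not. The ISRE was searched as GAAANNGAAA on both strands, where N is any base. It occurred in 18 of the 34 genes (52.9%), against 3.99% of the 27025 genes in the table. In 14 of the 18 a match lay wholly before the start. The 45 genes were chosen as known to be induced by interferon, so this share describes the list and not the effect of DB2313. The stretches below belong to the genes whose rise was largest or to an abundant effector, with each match in capitals (TTTC at either end is the same pattern read on the other strand), and Slfn1 is shown as a gene that rose without a match. The stretches were chr4:156200860-156200911 on the minus strand, 93 to 42 bases before the start of Isg15, chr19:34640770-34640828 on the plus strand, 119 to 61 bases before the start of Ifit1, chr19:34583358-34583431 on the plus strand, 171 to 98 bases before the start of Ifit3, chr12:26456548-26456587 on the minus strand, 135 to 96 bases before the start of Rsad2, chr8:71537572-71537617 on the minus strand, 145 to 100 bases before the start of Bst2, and chr11:83116740-83116819 on the plus strand, 80 to 1 bases before the start of Slfn1.
Isg15: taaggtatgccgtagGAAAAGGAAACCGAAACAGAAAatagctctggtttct
Ifit1: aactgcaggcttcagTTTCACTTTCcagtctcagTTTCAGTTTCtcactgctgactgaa
Ifit3: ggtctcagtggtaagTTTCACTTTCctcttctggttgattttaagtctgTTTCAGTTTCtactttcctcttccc
Rsad2: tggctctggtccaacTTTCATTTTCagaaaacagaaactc
Bst2: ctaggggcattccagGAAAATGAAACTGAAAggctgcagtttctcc
Slfn1: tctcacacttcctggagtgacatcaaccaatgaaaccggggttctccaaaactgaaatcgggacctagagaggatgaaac
Each stretch lies before the annotated span of its gene and outside its exons. Isg15 carried 3 overlapping matches in this stretch, Ifit1 and Ifit3 carried 2 separate ones, Bst2 carried 2 overlapping ones and Rsad2 1.

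Ifit3b carried the same 74 bases as Ifit3, and the 33 bases before the start of Oas1g equalled the first 33 of the 35 bases before the start of Oas1a. With TMM scaling, of the 18 genes with a match, 15 were higher, 2 (Ifitm2 and Ifitm3) lower and 1 (Eif2ak2) not called. The median log2 fold change of these 18 genes was 0.28. Of the 16 genes without a match, 12 were higher, 1 (Ifitm1) lower and 3 not called, with a median of 0.30. Of all tested genes, 20.8% were higher and 24.6% lower with this scaling. With scaling to the T cell markers, most genes with a match and most without one were lower. The 4 genes that were higher, Ifit1, Ifit3, Ifit3b and Rsad2, all carried a match. That scaling put 1.2% of all tested genes higher and 77.3% lower. A composite site at which Spi1 can bind together with an IRF, searched as GGAANNGAAA on both strands, occurred in 5 of the 34 genes (14.7%), against 3.16% of all genes in the table. These 5 were Dtx3l, Ifi44, Slfn2, Stat2 and Trim25, of which 2 were higher and 3 not called with TMM scaling. All 5 were lower with scaling to the T cell markers. The patterns differ at their second base, so they cannot match at the same place, but they can overlap, as in Stat2. The starts listed for Ifitm1 and Irf9 lie inside the annotated spans of these genes, so the bases before these spans were not read. A match is a description of letters, and no binding was measured here.

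Coordinates of the genes below are those of GRCm38, and 44 of the 45 genes are annotated as protein-coding, Mx2 being the exception. Among the transcription factors of the response, all 3 were higher with TMM scaling, while with scaling to the T cell markers Irf9 and Stat2 were lower and Irf7 was not called. Irf7 (ENSMUSG00000025498, chr7:141262706-141266481, minus strand) encodes the factor that drives transcription of the IFN-α genes and is itself induced by interferon. It was at 368, 366 and 393 CPM in the control libraries and at 595, 586 and 565 CPM in the DB2313 libraries, so the lowest DB2313 library lay far above the highest control library. Its log2 fold change was 0.63 ± 0.04 (SE, adjusted p = 4.08e-13, edgeR). Irf9 (ENSMUSG00000002325, chr14:55603571-55610030, plus strand), whose product gives the complex with STAT2 its DNA binding, was at 225, 211 and 226 CPM in the control libraries and at 275, 268 and 277 CPM in the DB2313 libraries. The groups did not overlap, at 0.31 ± 0.04 (SE, adjusted p = 1.69e-07, edgeR). Stat2 (ENSMUSG00000040033, chr10:128270559-128292849, plus strand) was at 334, 329 and 313 CPM in the control libraries and at 357, 345 and 356 CPM in the DB2313 libraries. The groups did not overlap, but the difference was small, at 0.12 ± 0.03 (SE, adjusted p = 0.00842, edgeR), and without control replicate 3 it was 0.09 and no longer passed the threshold. Within a library, 1.16 ± 0.0861 counts of Irf7 were found per count of Stat2 in the control libraries and 1.65 ± 0.0575 with DB2313 (SD, n = 3 each). This ratio does not depend on any scaling, and it was higher in each DB2313 library than in each control library (exact permutation test, two-sided, p = 0.1, the least possible with 3 per group).

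The 4 sensors of viral nucleic acid were each higher with TMM scaling and each lower when scaled to the T cell markers. Zbp1 (ENSMUSG00000027514, chr2:173206612-173218923, minus strand), which senses Z-form nucleic acid and can start cell death, was the most abundant, at 444, 451 and 442 CPM in the control libraries and at 556, 548 and 543 CPM in the DB2313 libraries. Each DB2313 library was above each control library, with a log2 fold change of 0.30 ± 0.03 (SE, adjusted p = 2.49e-08, edgeR). Ddx58, which encodes the RNA sensor RIG-I, went from 156 ± 4.16 to 194 ± 10.2 CPM, and Dhx58, which encodes its relative LGP2, from 79.3 ± 5.39 to 104 ± 2.64 CPM (SD, n = 3 each). Ifih1, which encodes the sensor of long double-stranded RNA MDA5, had the smallest change of the group, 0.22 ± 0.05 (SE, adjusted p = 0.00123, edgeR), with means ± SD that moved from 71.1 ± 3.77 to 82.7 ± 3.31 CPM.

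IFIT genes made up the 3 largest rises with TMM scaling. They lie close together on chromosome 19, and their products bind viral RNA and block its translation. All 4 were higher (median 0.91 on the log2 scale), and with scaling to the T cell markers Ifit1, Ifit3 and Ifit3b were still higher while Ifit2 was lower. Ifit1 (ENSMUSG00000034459, chr19:34640871-34650009, plus strand) was at 129, 138 and 124 CPM in the control libraries and at 251, 256 and 249 CPM in the DB2313 libraries. Each DB2313 library lay far above each control library, with a log2 fold change of 0.95 ± 0.04 (SE, adjusted p = 1.99e-15, edgeR). Ifit3 (ENSMUSG00000074896, chr19:34583531-34588731, plus strand), the most abundant of the group, was at 237, 249 and 235 CPM in the control libraries and at 448, 438 and 441 CPM in the DB2313 libraries. Its log2 fold change was 0.88 ± 0.03 (SE, adjusted p = 4.87e-16, edgeR), and the libraries within a group lay close together. Ifit3b (ENSMUSG00000062488, chr19:34607970-34613401, plus strand) was at 55.4, 53.5 and 56.1 CPM in the control libraries and at 113, 113 and 114 CPM in the DB2313 libraries. It had the largest rise of the 45 genes, 1.04 ± 0.05 (SE, adjusted p = 3.46e-15, edgeR). Ifit3 and Ifit3b are near copies, with 31.7% of the 100-base windows of Ifit3 and 27.4% of those of Ifit3b found in the other, so the division of reads between them is uncertain. Ifit2 rose less, from 167 ± 6.3 to 214 ± 3.03 CPM (SD, n = 3 each), with a log2 fold change of 0.36 ± 0.04 (SE, adjusted p = 1.86e-08, edgeR).

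**Figure D3:**
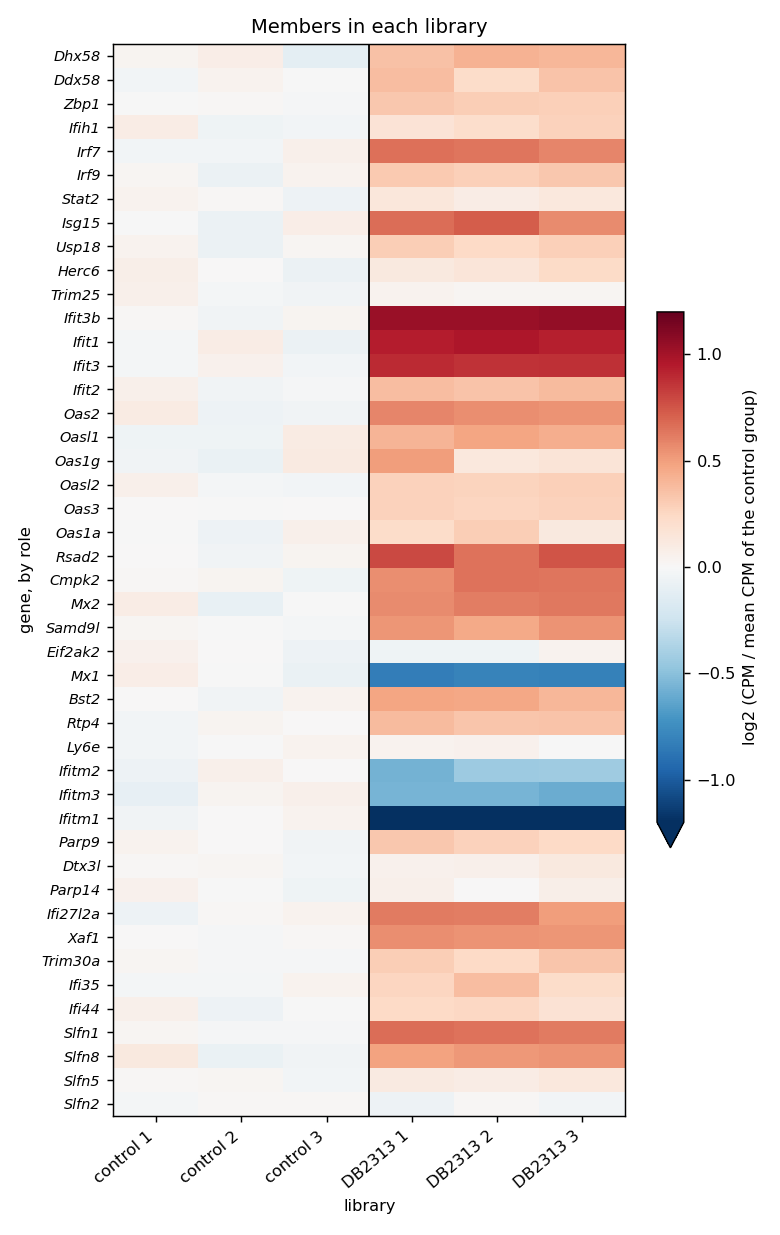
Heat map of the 45 genes (rows, ordered by role and then by fold change) in the 6 libraries (columns), coloured by the log2 ratio of the CPM (TMM scaling) to the mean of the control group, with red above and blue below it. The 3 DB2313 libraries resemble each other in nearly every row; Ifit3b, Ifit1 and Ifit3 are the deepest red, and Ifitm1, which lies below the end of the colour scale, and Mx1 are the deepest blue. With scaling to the T cell markers, 32 rows would be called lower.

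The ISG15 pathway attaches a small ubiquitin-like protein to other proteins. Of its 4 genes, 3 were higher and Trim25 was not called, and with scaling to the T cell markers 3 were lower and Isg15 was not called. Isg15 (ENSMUSG00000035692, chr4:156199424-156200818, minus strand), the modifier itself, was at 123, 118 and 131 CPM in the control libraries and at 198, 205 and 183 CPM in the DB2313 libraries. The groups were well separated, at 0.66 ± 0.04 (SE, adjusted p = 1.57e-11, edgeR). Usp18 (ENSMUSG00000030107, chr6:121245906-121270917, plus strand), which encodes the protease that removes ISG15 and also dampens signalling at the type I receptor, was at 114, 106 and 113 CPM in the control libraries and at 136, 131 and 135 CPM in the DB2313 libraries. It was higher in each DB2313 library, at 0.27 ± 0.04 (SE, adjusted p = 5.58e-06, edgeR). Herc6, the main ligase of ISG15 in the mouse, was at 0.16 ± 0.05 (SE, adjusted p = 0.0146, edgeR), and this call was lost without control replicate 3 or without DB2313 replicate 3, each with a value of 0.13. Of the 100-base windows of Herc6, 20.9% also occur in Gm45193. Trim25 (ENSMUSG00000000275, chr11:88999376-89020293, plus strand), a ubiquitin ligase that acts on RIG-I, had the highest CPM of the 4 but not the highest level per kilobase, at 227, 214 and 211 CPM in the control libraries and at 224, 221 and 222 CPM in the DB2313 libraries, and the groups overlapped.

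The OAS genes encode enzymes that sense double-stranded RNA and make a messenger that sets off RNA degradation, or relatives without that activity. All 6 were higher with TMM scaling (median 0.28 on the log2 scale), and with scaling to the T cell markers 5 were lower and Oas2 was not called. Oasl2 (ENSMUSG00000029561, chr5:114896936-114912234, plus strand) was the most abundant, at 313, 296 and 293 CPM in the control libraries and at 364, 361 and 365 CPM in the DB2313 libraries. The change was 0.27 ± 0.03 (SE, adjusted p = 4.83e-07, edgeR), with no overlap between the groups. Oas3 rose by a like amount, from 193 ± 0.946 to 233 ± 1.58 CPM (SD, n = 3 each), and Oas2 rose the most, at 0.56 ± 0.05 (SE, adjusted p = 6.85e-10, edgeR). Oasl1, known to restrain translation of Irf7 RNA, went from 44.8 ± 2.75 to 60.8 ± 1.46 CPM (SD, n = 3 each). Oas1a, at 0.21, and Oas1g, at 0.28 ± 0.11 (SE, adjusted p = 0.04, edgeR), share 40.9% and 38.2% of their 100-base windows with each other, which leaves the division of their reads uncertain. Oas1g was at 14.6, 14.3 and 16.2 CPM in the control libraries and at 21.3, 16.4 and 16.7 CPM in the DB2313 libraries, with DB2313 replicate 1 standing above the others. Its call was lost with DESeq2 (0.28) and without DB2313 replicate 1 (0.14), control replicate 1 (0.26) or control replicate 2 (0.24).

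Among the other effectors, 4 were higher, Mx1 was lower and Eif2ak2 was not called, and with scaling to the T cell markers Rsad2 was higher, Mx1, Samd9l and Eif2ak2 were lower and Mx2 and Cmpk2 were not called. Rsad2 (ENSMUSG00000020641, chr12:26442746-26456452, minus strand) encodes viperin, which makes a nucleotide that ends viral RNA chains. It was at 74, 71.5 and 75.6 CPM in the control libraries and at 127, 115 and 124 CPM in the DB2313 libraries. The groups did not overlap, with a log2 fold change of 0.73 ± 0.05 (SE, adjusted p = 3.46e-12, edgeR). Cmpk2, its neighbour on chromosome 12 and the source of a substrate for viperin, went from 72.5 ± 2.08 to 111 ± 3.87 CPM (SD, n = 3 each) with a log2 fold change of 0.62. Samd9l (ENSMUSG00000047735, chr6:3372257-3399572, minus strand), which restricts translation, was the most abundant of the group, at 256, 251 and 247 CPM in the control libraries and at 363, 344 and 365 CPM in the DB2313 libraries. It was higher in each DB2313 library, at 0.51 ± 0.03 (SE, adjusted p = 1.95e-11, edgeR). Eif2ak2, which encodes the kinase PKR that stops translation, was at -0.02 with a standard error of 0.05, and its sign turned with upper quartile (0.04) or library size (0.07) scaling and with control replicate 1 left out (0.0074).

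The 2 Mx genes, which encode dynamin-like GTPases that block viruses, went opposite ways with TMM scaling, and with scaling to the T cell markers Mx1 was lower and Mx2 was not called. Mx1 (ENSMUSG00000000386, chr16:97447035-97462907, minus strand) was at 131, 124 and 117 CPM in the control libraries and at 70.1, 71.3 and 70.9 CPM in the DB2313 libraries. Every DB2313 library lay far below every control library, with a log2 fold change of -0.81 ± 0.05 (SE, adjusted p = 5.17e-13, edgeR). Mx2, which the table annotates as a polymorphic pseudogene, was at 15.1, 13.4 and 14.1 CPM in the control libraries and at 21.1, 21.7 and 22.1 CPM in the DB2313 libraries. It was higher in each of them, at 0.61 ± 0.09 (SE, adjusted p = 6.15e-06, edgeR). Within a library, Mx1 had 8.77 ± 0.483 counts per count of Mx2 in the control libraries and 3.27 ± 0.0575 with DB2313 (SD, n = 3 each), without overlap between the groups. Laboratory mouse strains carry different Mx alleles, and the strain of the cells was not given in the sources used here. Of the 100-base windows of Mx1 and Mx2, 1.25% and 1.72% occur in the other gene.

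The membrane proteins split into genes that were higher and genes that were lower, and with scaling to the T cell markers all 6 were lower. The IFITM proteins keep enveloped viruses from fusing with the cell. Ifitm1 (ENSMUSG00000025491, chr7:140967221-140969825, plus strand) had the largest change of the 45 genes, and was at 484, 500.2 and 515 CPM in the control libraries and at 159.9, 150.2 and 145 CPM in the DB2313 libraries. Its log2 fold change was -1.72 ± 0.04 (SE, adjusted p = 2.49e-20, edgeR). Ifitm3 (ENSMUSG00000025492, chr7:141009586-141010770, minus strand) was at 523, 573 and 582 CPM in the control libraries and at 379, 379 and 371 CPM in the DB2313 libraries, again without overlap. It changed by -0.57 ± 0.04 (SE, adjusted p = 7.69e-12, edgeR). Ifitm2 (ENSMUSG00000060591, chr7:140954837-140955987, minus strand) was at 56.1, 61.2 and 58.7 CPM in the control libraries and at 39.6, 43.4 and 43.6 CPM in the DB2313 libraries. It changed by -0.48 ± 0.06 (SE, adjusted p = 8.33e-07, edgeR), and 34.9% of its 100-base windows also occur in other genes, Gm45717 foremost, which overlaps it. In the same libraries 18 of the 20 macrophage markers fell with a median of -1.18, and 6 of the 7 neutrophil markers fell. Per count of Lyz2, a lysozyme gene of macrophages and neutrophils, Ifitm1 had 0.0649 ± 0.00152 counts in the control libraries and 0.0727 ± 0.0029 with DB2313 (SD, n = 3 each). Ifitm1 thus fell slightly less than Lyz2, which at -1.89 was among the macrophage markers that fell most. It fell more than the median of these markers, -1.18. The ratio of Ifitm1 to Ifitm3 went from 0.894 ± 0.0274 to 0.403 ± 0.017 (SD, n = 3 each). The part of the other cell types in the fall of these genes was not tested.

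The other 3 membrane genes did not fall with TMM scaling. Bst2 (ENSMUSG00000046718, chr8:71534255-71537456, minus strand) encodes tetherin, which holds budding virus particles on the cell. It went from 392 ± 11.5 to 535 ± 15.6 CPM (SD, n = 3 each), a change of 0.45 ± 0.03 (SE, adjusted p = 1.32e-10, edgeR). Rtp4, which encodes a chaperone of receptors and is induced by interferon, went from 167 ± 3.88 to 214 ± 3.64 CPM (SD, n = 3 each), with 11.2% of its 100-base windows also in Gm45338. Ly6e (ENSMUSG00000022587, chr15:74955051-74959905, plus strand), whose product sits on the surface of lymphocytes and limits entry of some viruses, had the most counts of the 45 genes. It was at 1603, 1635 and 1684 CPM in the control libraries and at 1691, 1695 and 1640.3 CPM in the DB2313 libraries, and the groups overlapped. Its log2 fold change of 0.03 (standard error 0.03) became 0.13 and passed the threshold with library size scaling.

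**Figure D4:**
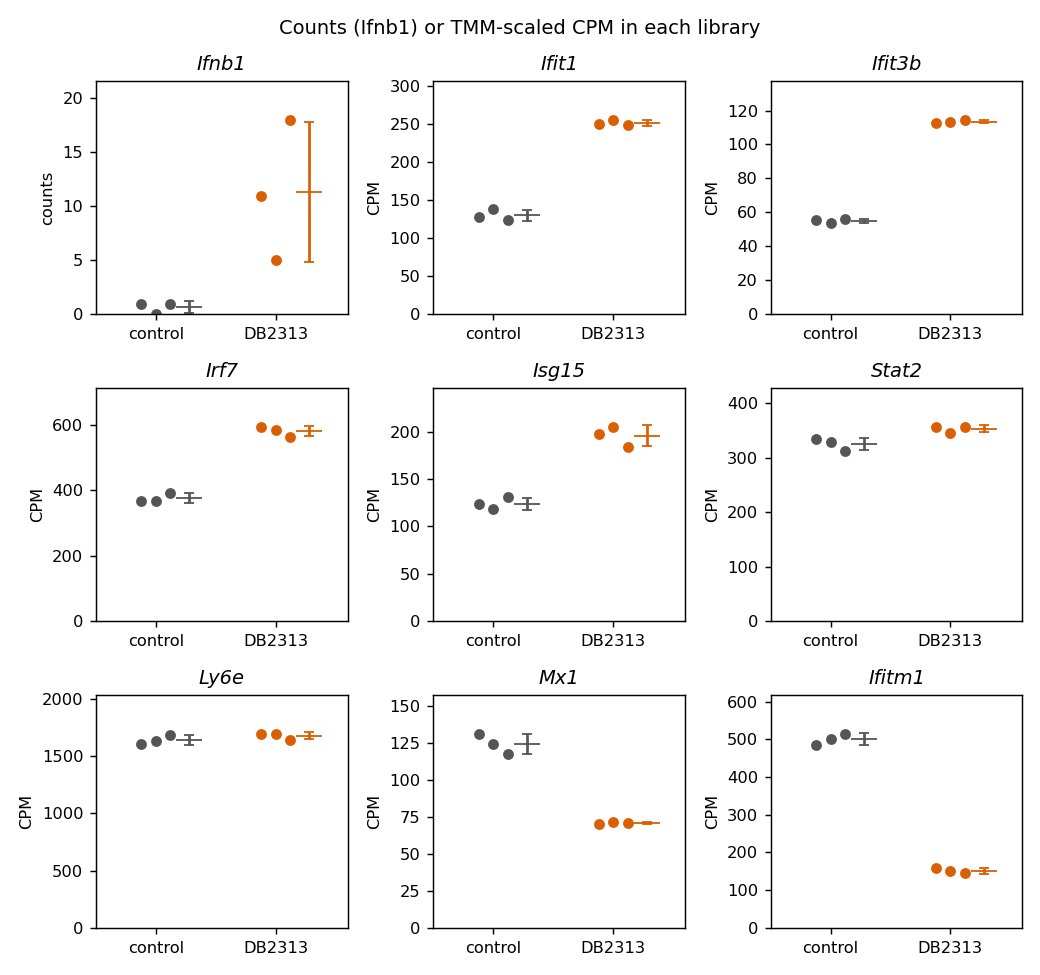
Counts of Ifnb1 and CPM (TMM scaling) of 8 of the antiviral genes in each library (points; y axes start at 0), with the mean and SD of the 3 control and the 3 DB2313 libraries beside them. Ifit1, Ifit3b, Irf7 and Isg15 are well above the control libraries with DB2313, Stat2 slightly, the groups overlap for Ly6e, and Mx1 and Ifitm1 are below them; Ifnb1 has at most 1 count in each control library and 5 to 18 with DB2313.

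Of the genes around poly-ADP-ribose signalling, Parp9 was higher and Dtx3l and Parp14 were not called, and with scaling to the T cell markers all 3 were lower. Parp9 and Dtx3l form a complex that supports interferon signalling. Parp9 went from 225 ± 6.84 to 273 ± 8.16 CPM (SD, n = 3 each), at 0.28 ± 0.04 (SE, adjusted p = 7.47e-07, edgeR). Dtx3l was higher in each DB2313 library than in each control library, yet did not pass the threshold, at 0.08 ± 0.03 (SE, adjusted p = 0.0697, edgeR). The exons of Parp9 and Dtx3l overlap by 458 bases on opposite strands, and whether the counting used the strand was not given in the sources used here. Parp14 (ENSMUSG00000034422, chr16:35832874-35871544, minus strand), which had the highest CPM of the 3 but the lowest level per kilobase, was at 396, 382 and 370.4 CPM in the control libraries and at 400.2, 385 and 401 CPM in the DB2313 libraries, with overlap between the groups.

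The 4 Schlafen genes, a family of which several members hold back growth or translation in lymphocytes and other cells, were higher except for Slfn2, and with scaling to the T cell markers Slfn2 and Slfn5 were lower and Slfn1 and Slfn8 were not called. Slfn1 (ENSMUSG00000078763, chr11:83116849-83122670, plus strand) was at 377, 366 and 366 CPM in the control libraries and at 586, 579 and 570.4 CPM in the DB2313 libraries. Its log2 fold change of 0.65 ± 0.03 (SE, adjusted p = 4.35e-14, edgeR) was one of the 6 largest. Slfn2 (ENSMUSG00000072620, chr11:83065112-83070678, plus strand), known for keeping T cells at rest, was at 566, 579 and 579 CPM in the control libraries and at 551, 579 and 563 CPM in the DB2313 libraries, and the groups overlapped. Within a library, Slfn1 had 0.643 ± 0.0192 counts per count of Slfn2 in the control libraries and 1.03 ± 0.0341 with DB2313 (SD, n = 3 each), so neighbouring genes of 1 family changed unequally. Slfn8 went from 152 ± 11.5 to 217 ± 4.87 CPM (SD, n = 3 each), at 0.51. Slfn5 had the smallest change that passed, 0.11 ± 0.04 (SE, adjusted p = 0.0153, edgeR), and without control replicate 3 it was 0.10 and did not pass. Its exons share 559 bases with an antisense gene, Slfn5os.

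The other 5 induced genes were each higher with TMM scaling, and with scaling to the T cell markers 3 were lower and Ifi27l2a and Xaf1 were not called. Ifi27l2a (ENSMUSG00000079017, chr12:103442167-103443680, minus strand), a short gene of the Ifi27 family, was at 381, 401 and 408 CPM in the control libraries and at 609, 608 and 561 CPM in the DB2313 libraries. The groups did not overlap, at 0.58 ± 0.04 (SE, adjusted p = 5.75e-12, edgeR). Xaf1, whose product promotes apoptosis, went from 105 ± 1.08 to 154 ± 1.36 CPM (SD, n = 3 each), at 0.54. Trim30a, which restrains inflammatory signalling, was at 0.29, and Ifi35, of which 290 exonic bases overlap Gm11626 on the opposite strand, was at 0.29. Ifi44 was at 0.22 ± 0.07 (SE, adjusted p = 0.0103, edgeR), and its call was lost without control replicate 2, at 0.19.

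Levels of the 45 genes were compared per kilobase of gene length, as mean CPM per kb in the control and the DB2313 group (SD, n = 3 each). Ifi27l2a was the highest over all libraries, at 856 ± 30.8 and 1279.9 ± 59.4. Ifitm3 followed, at 825 ± 46.8 and 555 ± 6.6, then Bst2, at 434 ± 12.7 and 592 ± 17.3. In the control group Ifitm1, at 457 ± 14.3 and 139 ± 7.06 in the respective groups, was above Bst2 and Ly6e, and in the DB2313 group it was below both. The lowest were Mx2, at 3.93 ± 0.235 and 5.98 ± 0.142, and Ifi44, at 5.27 ± 0.219 and 6.13 ± 0.179.

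Relative to the T cell markers, 3 of the IFIT genes and Rsad2 were higher with DB2313. Per summed count of the 20 markers, Ifit1 had 0.0338 ± 0.00205 counts in the control libraries and 0.0434 ± 0.00057 with DB2313 (SD, n = 3 each). For Ifit1, Ifit3 and Ifit3b, this ratio was higher in each DB2313 library than in each control library (exact permutation test, two-sided, p = 0.1 each, again the least possible). The ratio of Irf7 was 0.0972 ± 0.00348 and 0.1 ± 0.00271, and that of Isg15 was 0.0321 ± 0.0015 and 0.0337 ± 0.00188 (SD, n = 3 each). In both of these the groups overlapped (the same exact test, p = 0.3 each). The ratios of Stat2, Ly6e and Ifitm1 were lower in each DB2313 library, and that of Ly6e went from 0.425 ± 0.0102 to 0.289 ± 0.00527 (SD, n = 3 each). Without any marker, the ratio of Ifitm1 to Ifit1 went from 3.84 ± 0.272 to 0.602 ± 0.0309 and that of Ifitm3 to Ifit3 from 2.33 ± 0.137 to 0.851 ± 0.0122 (SD, n = 3 each), so the antiviral genes did not move by 1 common factor under any scaling.

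The interferon genes themselves had few or no counts. Of 21 interferon genes, 15 had no count, among them 13 of the 14 IFN-α genes. As an approximate upper limit for a count of 0, 3 counts were taken, which correspond to 0.161 to 0.181 CPM in a library (counting error only, since reads are not independent molecules). Ifna7 had 4 counts, all in DB2313 replicate 2. Ifnb1, which encodes IFN-β, had 1, 0 and 1 counts in the control libraries and 11, 5 and 18 in the DB2313 libraries. The groups did not overlap. The summed rate was 17.4 times higher with DB2313, with a 95% exact interval from 4.45 to 149.0 that covers counting error only. Ifnb1 did not pass the filter of the main test. It passed the threshold without a filter, at a log2 fold change of 3.79 (adjusted p = 0.00049, edgeR), and with DESeq2, at 4.01 (adjusted p = 0.00839). Ifng, which encodes IFN-γ, had 27, 18 and 24 counts in the control libraries and 24, 7 and 15 in the DB2313 libraries, a ratio of 0.681 (0.458 to 1.0), and the groups overlapped. It was at -0.65 ± 0.39 on the log2 scale and was not called with TMM (SE, adjusted p = 0.19, edgeR), and with scaling to the T cell markers it was lower, at -1.23. The libraries hold RNA counts at 1 time, so interferon protein and earlier transcription were not measured.

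Other genes of the pathway that are not among the 45 were taken from lists set by role. Of 79 such genes 59 were tested. With TMM scaling 24 were higher, where 20.8% of all tested genes were, 21 lower, where 24.6% were, and 14 not called. Their median log2 fold change was -0.0049. With scaling to the T cell markers 2 were higher and 56 lower, where 1.2% and 77.3% of all tested genes were. That scaling, with its 77.3% of all tested genes lower, put all 9 receptors and kinases, all 11 sensors and adaptors and all 5 inhibitors lower. The receptor chains Ifnar1 and Ifnar2 were at -0.0016 and -0.08 (standard errors 0.04 and 0.05) and were not called with TMM scaling. Among all 9 receptor and kinase genes, Ifngr1 and Jak1 were higher and Ifngr2, Ifnlr1, Jak2 and Tyk2 lower, and Tyk2, the kinase bound to Ifnar1, was at -0.60 ± 0.04 (SE, adjusted p = 2.26e-12, edgeR). Of the interferon regulatory factors in the lists, with TMM scaling Irf3 was higher, Irf1 was not called, and Irf2, Irf5 and Irf8 were lower. Irf8 and Irf5, factors prominent in myeloid cells, had the largest falls among these, -1.08 and -1.07. Of the 11 sensors and adaptors that lead to interferon transcription, 1 was higher (Ikbke) and 7 were lower, with Tlr9 at -1.03 and Tlr3 at -0.87. Both genes of ISG15 conjugation, Uba7 and Ube2l6, were higher with TMM, at 0.26 and 0.19, and both were lower with scaling to the T cell markers. Of 10 other antiviral genes, 6 were higher with TMM, led by Isg20 at 0.72, and 2 were lower, whereas 1 was higher and 9 were lower with scaling to the T cell markers. Of the 5 inhibitors, Socs1 and Nlrc5 were higher and Socs3 and Ptpn6 lower.

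GTPases that are typical targets of IFN-γ were followed for comparison, since the cocultured cells of both groups had received IFN-γ. Of 15 genes, 9 were higher, 3 (Gbp2, Gbp3 and Gbp5) lower and 3 not called with TMM scaling, where 20.8% and 24.6% of all tested genes were higher and lower. With scaling to the T cell markers 1 was higher and 13 were lower, where 1.2% and 77.3% of all tested genes were. Their median log2 fold change with TMM was 0.25, against 0.29 for the 45 antiviral genes and 0.02 for all tested genes. The largest rises were in Tgtp1, at 0.73 ± 0.04 (SE, adjusted p = 7.55e-14, edgeR), and Igtp, at 0.57, both members of the family of small GTPases that attack the vacuoles of parasites. The IFIT genes, the role group with the highest median, had a median of 0.91, which lay above the highest value of the GTPases. Ifit2, at 0.36, lay below Tgtp1 and Igtp, and the medians of the other role groups lay below Tgtp1. The difference between the lists was not tested, since genes are not replicates.

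**Figure D5:**
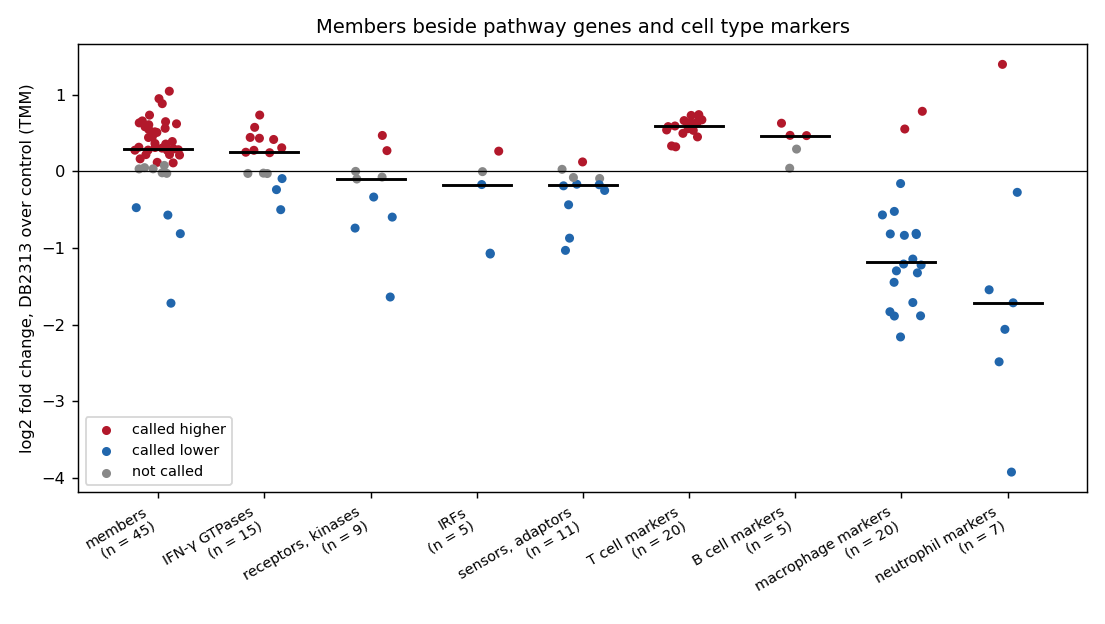
Log2 fold change of DB2313 over control (y axis, TMM scaling) for the tested genes of each list (x axis; 1 point per gene, coloured by call at an adjusted p of 0.05; black bars are medians). The 45 antiviral genes have a median of 0.29, the IFN-γ GTPases of 0.25, the T cell markers of 0.59 and the macrophage markers of -1.18; with scaling to the T cell markers the median of the 45 genes is -0.29 and that of the GTPases -0.34.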

How the data were processed

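RNA-seq was run on 6 samples of CD8T cells, 3 per group, grouped by the labels. The authors deposited raw counts per gene without normalization. The submitters' processing notes name CASAVA 1.8, HISAT2 2.0.5 and featureCounts 1.5.0-p3, whereas the paper names LifeScope for alignment and counting. The build, annotation and strand setting are not given in the sources used here, but the coordinates of all 45 genes equal GENCODE mouse release M21 (GRCm38). From the counts, genes were filtered (filterByExpr), scaled by TMM and tested with edgeR 4.0.16 (glmQLFit, glmQLFTest) in R 4.3.3, with Benjamini-Hochberg adjustment over 14883 genes, an adjusted p below 0.05 and, where stated, an absolute log2 fold change above 1. Scripts were tested on simulated data. Alternatives were DESeq2 1.42.0 (the study's tool), other scalings and filters, a replicate block and leaving out each sample. No library was a copy of another, with a chi-square per gene of 2.47 to 3.96 within groups and 51.3 to 56.0 between them. Library totals of 16611975 to 18596217 counts put 3 counts at 0.161 to 0.181 CPM. The genes and lists were chosen with earlier results of these data known. Genes were described in full if among the 6 largest rises, called lower, or highest in mean CPM of their role group, as were Irf7, Irf9, Stat2 and Usp18. Genes of the other lists were named only as examples. The deposited gene lengths were used for levels per kilobase, and 100-base windows of GENCODE transcripts were compared to find genes that can share reads. Some genes of the lists are counted but not reported here by name.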

Additional observations from a re-analysis of the deposited data

How the results depend on the processing

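Leaving aside the scaling to the T cell markers, single genes were compared with their reported value 540 times over the alternatives. Neither sign nor call changed in 518 of these, a call was lost in 9 and gained in 8, and the sign turned in 5. The sign turned in Eif2ak2, at 0.0742 with library size scaling, 0.0439 with upper quartile scaling and from -0.0529 to 0.0074 over the fits without 1 library (0.0074 without control replicate 1), and in Slfn2, at 0.0672 and 0.0366 with these scalings. Trim25, Ly6e, Parp14 and Dtx3l passed as higher with both scalings, which gave medians of 0.3859 and 0.3553 and moved the median of all tested genes to 0.11 and 0.08. Leaving out 1 library at a time, 32 to 35 genes were higher and 4 lower, with 2 past the fold threshold and medians from 0.2808 to 0.3167. Samples with the same number showed no sign of pairing (correlations from -0.0228 to -0.00332, against -0.0288 to 0.0407 for the others). With 3 samples per group this check cannot exclude pairing. With a replicate block 35 genes were higher and 4 lower, with a median of 0.2909 and no call changed. No filter and at least 10 counts in every sample changed no call. With scaling to the T cell markers, 4 genes were higher, 32 lower and 4 past the fold threshold, all of them lower, with a median of -0.2932. The genes whose sign then turned were at -0.55 in Ly6e, -0.55 in Trim25, -0.54 in Parp14, -0.51 in Dtx3l, -0.48 in Slfn5, -0.47 in Stat2, -0.42 in Herc6, -0.37 in Oas1a, -0.37 in Ifih1, -0.37 in Ifi44, -0.31 in Oas3, -0.31 in Usp18, -0.31 in Oasl2, -0.31 in Oas1g, -0.30 in Parp9, -0.30 in Ifi35, -0.29 in Trim30a, -0.28 in Zbp1, -0.27 in Irf9, -0.27 in Ddx58, -0.23 in Rtp4, -0.22 in Ifit2, -0.20 in Dhx58, -0.14 in Oasl1, -0.14 in Bst2, -0.0783 in Samd9l, -0.0703 in Slfn8, -0.0405 in Xaf1, -0.0241 in Oas2 and -0.0046 in Ifi27l2a. This scaling subtracts the rise of the markers from every gene by construction. Most interferon genes had no count, and absence of their RNA cannot be told apart from a level below what this depth detects.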
